A study of Homo sapiens with 6 samples.

Results

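The genes described here are the Wnt ligands, their receptors and the regulators of Wnt signalling in T47D breast cancer cells: every row of the deposited expression table whose symbol belongs to a WNT, FZD, DKK, SFRP, DVL, TCF/LEF or LGR4 to LGR6 gene, LRP5, LRP6, AXIN1, AXIN2, APC, CTNNB1, RNF43, ZNRF3, PORCN or WLS. Membership rests on this rule over gene symbols alone, and 54 of the 17891 genes in the table met it. The set was chosen with earlier results of these data known. SFRP5 was the only SFRP gene among them. T47D is an established luminal breast cancer cell line. RNA was sequenced from 3 libraries of T47D cells made with the PLVX-puro lentivirus to overexpress PRL, the gene of the hormone prolactin (T47D-PRL), and from 3 libraries of T47D cells with the lentivirus control (T47D-PLVX). Both groups thus carried the lentivirus and were grown in RPMI medium with FBS for 2 days. The submitters describe the libraries as biological replicates, while separate cultures or transductions, and whether a group is a pool or a clone, are not stated in the sources used here, so the p-values measure the spread between these libraries.

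Wnt proteins are secreted, lipid-modified ligands. In the canonical branch they bind a Frizzled receptor together with LRP5 or LRP6, Dishevelled proteins relay the signal, and the complex of AXIN and APC that marks beta-catenin for destruction is held back, so that beta-catenin can join TCF/LEF factors on DNA. Other branches act through Frizzleds and Dishevelleds without beta-catenin. In the mammary gland WNT4 is known as a signal made by hormone-receptor-positive luminal cells in response to progesterone.

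Levels below are read counts scaled to library size by TMM factors (CPM), which compare a gene between libraries, or the deposited TPM, which are scaled to gene length too and serve to set genes beside each other. Differences are log2 fold changes of PRL over control from edgeR with standard errors (SE), with p-values adjusted over all 14076 tested genes, and n = 3 libraries per group. The libraries held 16211146 to 17402348 counts. PRL itself had 3, 3 and 1 counts across the controls against 8277, 8097 and 7789 across the PRL libraries. The control libraries differed among themselves, and the PRL libraries did so much less. A chi-square comparing the counts of 2 libraries, averaged over genes, was 12.7 to 24.4 between controls and 1.66 to 2.17 between PRL libraries. Whether the PRL libraries come from separate cultures was not tested. The correlation of control replicate 3 with the PRL libraries was 0.944 to 0.945, against 0.926 to 0.931 for the other 2. Control replicate 1 had a TMM factor of 0.848 against 0.955 and 0.946, and a ribosomal protein share of 18.7% against 16.1% and 15.6%. Ribosomal protein genes took 16.8% ± 1.67 of the counts in controls and 10.4% ± 0.288 with PRL, and their part in the results was not tested, apart from scaling without them, which left 15 members higher and 5 lower as before. Luminal markers summed to 21272 to 27336 CPM in controls and 17456 to 18029 CPM with PRL, and all 12 were detected. The keratins KRT8, KRT18 and KRT19 made up most of this, at 20455 CPM in controls and 13587 CPM with PRL, while the other 9 summed to 3095 and 4163 CPM; of the 12, 6 were called higher and 4 lower. The 5 immune markers, mostly CD68, summed to 4.80 to 6.19 CPM in controls and 17.8 to 18.9 CPM with PRL. The 7 stromal markers, nearly all COL1A1, summed to 42.6 to 59.2 and 71.5 to 72.1 CPM, while 4 of them had at most 3 counts in every library. The 7 basal markers summed to 21.6 to 25.3 and 21.0 to 22.0 CPM, with ACTA2 called lower (-1.01 on the log2 scale) and OXTR (1.39), TP63 (1.25) and KRT17 (0.85) higher. The 3 endothelial markers summed to 0.936 to 1.53 and 0.881 to 1.08 CPM. The part of other cell types in the results was not tested, and in such bulk samples fewer cells of a type and less RNA per cell cannot be told apart.

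Of the 54 genes, 38 had enough counts to test, 8 were detected but too low to test, and 8 had at most 3 counts in every library. Among the 38, 15 were higher with PRL (39.5%, where 32.4% of all tested genes were higher) and 5 were lower (13.2%, where 30.5% of all tested genes were lower). In either direction 20 were called (52.6%, against 62.9% of all tested genes), and 18 did not pass the test. Of the 38, 6 passed the count minimum only through the PRL group (WNT1, WNT3A, WNT8B, WNT11, DKK4 and LGR6) and could hardly have been called lower; among the remaining 32, 12 were higher and 5 lower. A difference of at least 2-fold was found upward for 5 genes (WNT1, WNT11, WNT3A, DKK1 and LGR4), against 10.6% of all tested genes, and downward for 1 (TCF7L1), against 5.29%. Among the 32 that also passed the minimum in controls, 2 were at least 2-fold higher (DKK1 and LGR4) and 1 lower. The 3 PRL libraries lay above all 3 controls for 19 members and below them for 7, against 35.9% and 33.5% of all tested genes. The median log2 fold change was 0.23 over the 38 members and 0.01 over all tested genes. The count of lower members depended on single libraries: it was 3 without control replicate 1, PRL replicate 1 or PRL replicate 2, and 2 without PRL replicate 3, where 13 to 14 were higher. Without control replicate 3 it was 5 again, with 15 higher, but the members differed: 14 of the higher and 4 of the lower ones were shared, WNT3A and WNT9A no longer passed, and WNT8B (higher) and WNT7B (lower) did.

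**Figure D1:**
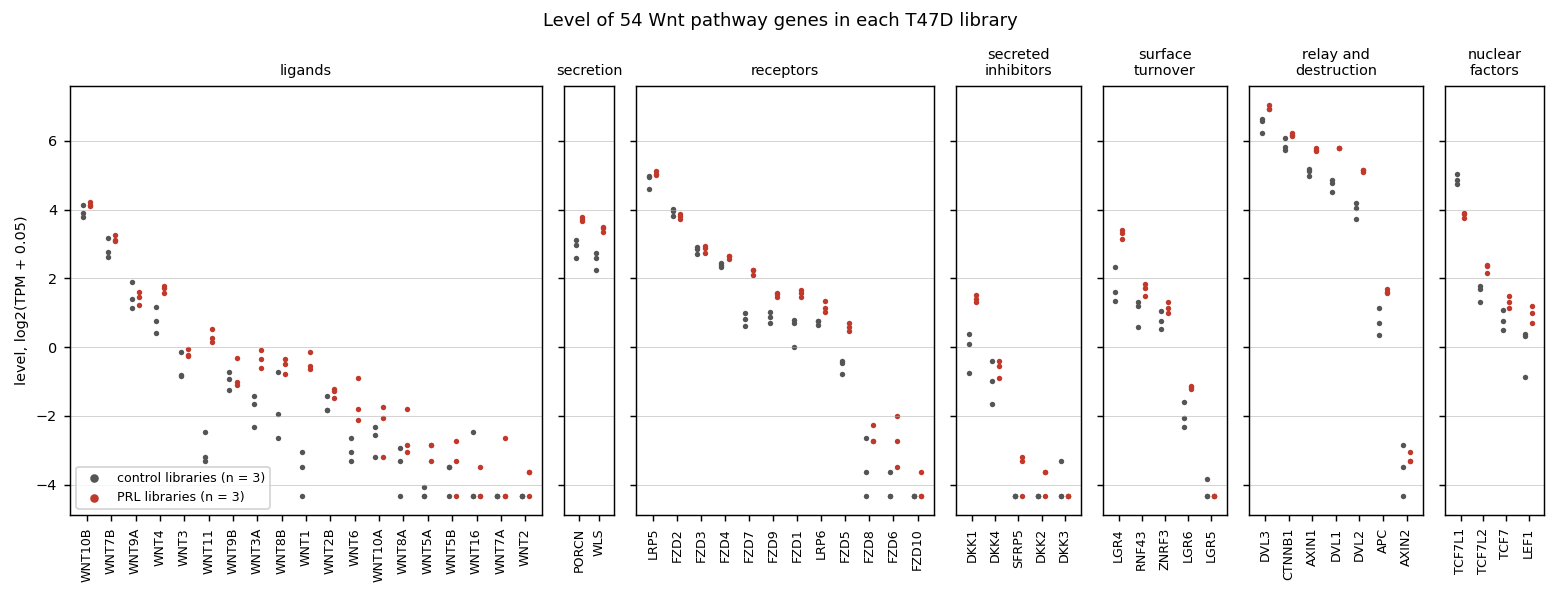
Level of the 54 genes in each of the 6 libraries as log2(TPM + 0.05) on the vertical axis, grouped by role along the horizontal axis, with 1 point per library coloured by group. DVL3 had the highest mean level and the ligands spanned the range from WNT10B down to genes listed at 0.

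Ligand expression was led by WNT10B and WNT7B, with little difference between the groups, while a set of scarce ligands differed. WNT10B, a ligand of the canonical branch, was the most abundant WNT transcript at 15.4 ± 1.92 TPM in controls and 17.8 ± 0.766 TPM with PRL. It measured 21.9, 22.4 and 20.78 CPM across the controls against 19.2, 20.76 and 19.4 CPM across the PRL libraries. The PRL libraries lay just below the controls, and the difference did not pass the test (edgeR log2 fold change -0.13 with SE 0.087, adjusted p = 0.204). WNT10B made up 52.2% ± 0.981 to 46.4% ± 2.19 of the summed TPM of all WNT genes from control to PRL. The corresponding shares of WNT7B were 24.5% ± 3.09 to 23.2% ± 1.42. Summed over the family, ligand levels were 61.2 ± 3.46 CPM in controls and 59.99 ± 1.33 CPM with PRL.

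WNT4 was higher with PRL. It measured 5.35, 3.70 and 4.93 CPM across the controls against 6.87, 6.50 and 7.53 CPM across the PRL libraries, a 1.49-fold difference (edgeR log2 fold change 0.58 with SE 0.16, adjusted p = 0.00941). The groups did not overlap, and the share of WNT4 in the summed WNT TPM was 5.91% ± 1.87 to 8.30% ± 0.560 from control to PRL. WNT9A was lower, at 7.25, 7.46 and 10.3 CPM across the controls against 6.42, 6.002 and 5.14 CPM across the PRL libraries (edgeR log2 fold change -0.51 with SE 0.17, adjusted p = 0.0201). All 3 PRL libraries lay below the controls, of which control replicate 3 was the highest. Without that library the difference did not pass the test (log2 fold change -0.31, edgeR adjusted p = 0.0693). Nor did it without PRL replicate 2 (edgeR adjusted p = 0.0508) or PRL replicate 3 (edgeR adjusted p = 0.0839). The call was also lost with library totals (-0.26, edgeR adjusted p = 0.254) and on log2(TPM + 1) (-0.035, limma adjusted p = 0.856). The median of all genes was 0.26 and 0.39 in these 2 settings.

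WNT1 and WNT11 went from near absence to a low but countable level. WNT1, the founding ligand of the family, had 0, 1 and 2 counts across the controls against 20, 15 and 14 across the PRL libraries. Pooled and scaled to library size, that is a ratio of 14.1 (exact binomial 95% interval 4.56 to 70.8), and the fitted difference was 3.67 (SE 0.59, edgeR adjusted p = 3.4e-04). WNT11, known mainly from the branches that do not use beta-catenin, had 1, 1 and 3 counts across the controls against 21, 19 and 25 across the PRL libraries, a ratio of 11.2 (exact binomial 95% interval 4.58 to 35.8) with a fitted difference of 3.40 (SE 0.46, edgeR adjusted p = 1.2e-04). In both genes every PRL library lay above every control. These fitted values depended on control replicate 3, without which they were 4.53 for WNT1 and 4.07 for WNT11. With PRL the WNT1 level still came to only 0.911 ± 0.171 CPM and that of WNT11 to 1.21 ± 0.195 CPM. On log2(TPM + 1), a scale that understates the change of such low genes, the differences were 0.71 and 1.02.

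WNT3A, a canonical ligand, had 12, 9 and 5 counts across the controls against 21, 18 and 26 across the PRL libraries (edgeR log2 fold change 1.10 with SE 0.37, adjusted p = 0.0236). The groups did not overlap, at 0.813, 0.574 and 0.312 CPM across the controls against 1.16, 0.991 and 1.48 CPM across the PRL libraries. The call did not hold with DESeq2 (adjusted p = 0.0801) or, in edgeR, without control replicate 2 (adjusted p = 0.0583), control replicate 3 (adjusted p = 0.0626), PRL replicate 1 (adjusted p = 0.0531) or PRL replicate 3 (adjusted p = 0.0942).

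The other tested ligands did not pass the test in edgeR: WNT7B at 20.3 ± 3.73 CPM in controls and 18.4 ± 1.38 CPM with PRL (log2 fold change -0.15, adjusted p = 0.360), WNT3 (log2 fold change -0.038, adjusted p = 0.908), WNT9B (log2 fold change -0.11, adjusted p = 0.786), WNT2B (log2 fold change -0.44, adjusted p = 0.170) and WNT8B (log2 fold change 0.71, adjusted p = 0.201). Control replicate 3 held 13 WNT8B counts against 3 and 5 in the other controls, and without it WNT8B passed (log2 fold change 1.49, edgeR adjusted p = 0.0159). WNT7B also passed without that library (log2 fold change -0.27, edgeR adjusted p = 0.0237). Of the 11 tested ligands, 4 were higher (36.4%), 1 was lower (9.09%) and 6 did not pass, with a median log2 fold change of -0.04. Over all tested genes 32.4% were higher and 30.5% lower. Of the higher ligands, WNT1, WNT11 and WNT3A passed the count minimum only through the PRL group, and WNT4 passed it in controls too.

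Another 5 ligands were detected but too low to test. WNT5A, the best known ligand of the branches without beta-catenin, had 1, 0 and 0 counts across the controls against 6, 4 and 5 across the PRL libraries, a ratio of 12.97 (exact binomial 95% interval 1.99 to 546). WNT6 had 1, 1 and 2 counts across the controls against 8, 4 and 3 across the PRL libraries, a ratio of 3.24 (exact binomial 95% interval 1.03 to 13.4). WNT10A had 3, 3 and 1 counts across the controls against 1, 3 and 4 across the PRL libraries, WNT8A had 3, 2 and 0 counts across the controls against 3, 7 and 2 across the PRL libraries, and WNT16 had 0, 4 and 0 counts across the controls against 1, 0 and 0 across the PRL libraries. In these counts WNT5A and WNT6 were higher in each PRL library than in any control, and the other 3 overlapped. WNT2, WNT5B and WNT7A had at most 3 counts in every library. A count of 0 allows up to 3 counts, which is 0.165 to 0.203 CPM by library, and these intervals and limits cover counting error only.

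There are 4 pairs of WNT genes that lie beside each other in the genome. Over all tested genes 32.4% were higher and 30.5% lower, and so few pairs cannot show whether neighbouring genes differ together. WNT1 and WNT3A passed the count minimum only through the PRL group and could hardly have been called lower. Positions are from GENCODE 29 on GRCh38. WNT1 (chromosome 12, 48978453 to 48981676, plus strand) and WNT10B (chromosome 12, 48965340 to 48971763, minus strand) are transcribed away from each other with 6689 bases between the annotated genes, and WNT1 rose while WNT10B did not pass the test. WNT3A (chromosome 1, 228007051 to 228061260, plus strand) and WNT9A (chromosome 1, 227918656 to 227947898, minus strand) are likewise transcribed in opposite directions, 59152 bases apart, and WNT3A was called higher and WNT9A lower. Neither of these 2 calls held without control replicate 3 (edgeR adjusted p = 0.0626 and 0.0693). WNT10A and WNT6 on chromosome 2 lie 6129 bases apart on the same strand, and both were too low to test. WNT3 and WNT9B on chromosome 17 lie 46 bases apart on opposite strands, and neither passed.

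The 250 bases before the start of WNT1 are shown because this ligand went from near absence to a countable level beside an abundant neighbour that did not. The stretch is chr12:48978072-48978321 on the plus strand of GRCh38.p14, from RefSeq, 5′ to 3′. Promoters of 39 of the 54 genes were in the RefSeq table. They were searched on both strands for TTCNNNGAA (the STAT5 motif), CTTTGAT and CTTTGTT (TCF/LEF) and the interferon-stimulated response element, and matches would appear in capitals. WNT1 held none, and 78.4% of its letters were G or C.
WNT1 promoter: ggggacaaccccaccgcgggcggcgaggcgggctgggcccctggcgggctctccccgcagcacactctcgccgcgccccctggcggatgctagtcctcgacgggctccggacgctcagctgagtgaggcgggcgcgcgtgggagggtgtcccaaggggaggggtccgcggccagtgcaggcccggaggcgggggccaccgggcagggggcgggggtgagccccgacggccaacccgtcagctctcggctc

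**Figure D2:**
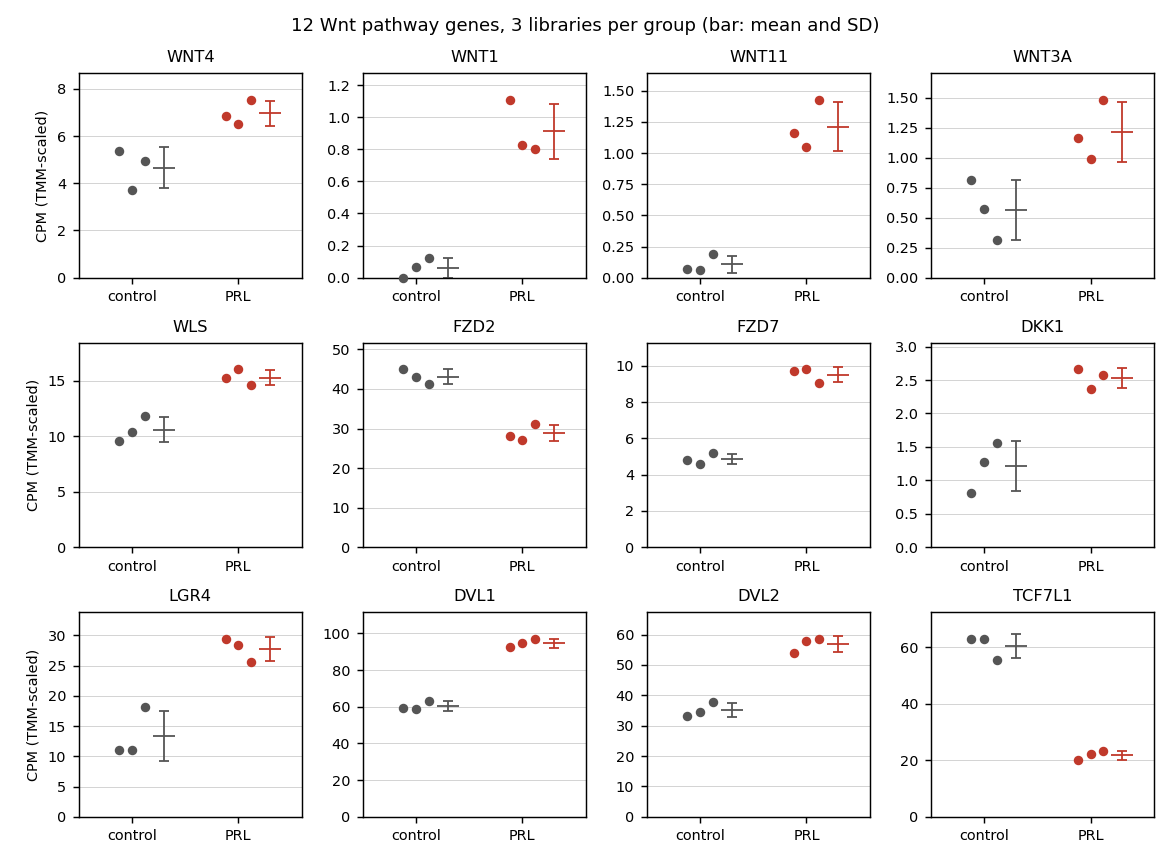
CPM after TMM scaling of 12 genes in each library (points; 3 control libraries in grey, 3 PRL libraries in red) with the mean and SD of each group, on axes that start at 0. In all 12 the groups do not overlap; TCF7L1 and FZD2 are lower with PRL and the other 10 higher.

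Both members for making a secreted Wnt protein were called higher, where 32.4% of all tested genes were higher. PORCN, the acyltransferase that attaches the lipid to Wnt proteins, measured 9.08, 9.89 and 10.9 CPM across the controls against 13.6, 12.6 and 13.4 CPM across the PRL libraries (edgeR log2 fold change 0.41 with SE 0.11, adjusted p = 0.00758). WLS, the carrier that takes lipid-modified Wnt proteins to the cell surface, measured 9.56, 10.4 and 11.8 CPM across the controls against 15.2, 16.02 and 14.6 CPM across the PRL libraries (edgeR log2 fold change 0.53 with SE 0.11, adjusted p = 0.00185). In both genes all PRL libraries lay above all controls, 1.33-fold for PORCN and 1.44-fold for WLS by the fit.

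Among the receptors the co-receptors LRP5 and LRP6 showed little difference, whereas 3 Frizzleds were higher and 3 lower. LRP5 was the most abundant receptor transcript at 28.7 ± 3.78 TPM in controls and 33.05 ± 1.35 TPM with PRL. It measured 66.1, 69.01 and 72.3 CPM across the controls against 70.99, 66.5 and 69.3 CPM across the PRL libraries, with overlapping groups (edgeR log2 fold change -0.0050 with SE 0.073, adjusted p = 0.956). LRP6 measured 11.9 ± 0.594 CPM in controls and 11.8 ± 1.39 CPM with PRL (edgeR log2 fold change -0.0087 with SE 0.12, adjusted p = 0.953). A p above the threshold does not show that levels were equal.

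FZD2 was the leading Frizzled and was lower with PRL. It measured 44.9, 43.1 and 41.2 CPM across the controls against 28.2, 27.1 and 31.04 CPM across the PRL libraries, 1.49-fold lower (edgeR log2 fold change -0.58 with SE 0.083, adjusted p = 1.7e-04), and the groups did not overlap. On the TPM scale, where the median of all genes was itself shifted upward, the FZD2 difference was -0.12 and did not pass (limma adjusted p = 0.366). FZD3 measured 29.8, 28.1 and 26.6 CPM across the controls against 23.4, 24.7 and 21.8 CPM across the PRL libraries (edgeR log2 fold change -0.27 with SE 0.089, adjusted p = 0.0204). FZD4 measured 31.3, 28.5 and 27.1 CPM across the controls against 24.9, 25.3 and 24.5 CPM across the PRL libraries (edgeR log2 fold change -0.22 with SE 0.086, adjusted p = 0.0478). Both were lower in each PRL library than in any control. The FZD3 call was lost without control replicate 1, PRL replicate 1 or PRL replicate 3 (edgeR adjusted p = 0.0553, 0.0690 and 0.105). The FZD4 call was lost when any library but control replicate 3 was left out (edgeR adjusted p = 0.0571 to 0.146). It was also lost with DESeq2 (adjusted p = 0.0888), and in edgeR with upper quartile scaling (adjusted p = 0.113) or a stricter count filter (adjusted p = 0.0606). The directions of FZD3 and FZD4 depended on scaling. With library totals the log2 difference of FZD4 was 0.042 and that of FZD3 -0.016, and on the TPM scale they were 0.20 and 0.022.

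FZD7, FZD1 and FZD5 were higher. FZD7, a Frizzled often described in mammary stem and basal cells, measured 4.81, 4.59 and 5.18 CPM across the controls against 9.69, 9.80 and 9.07 CPM across the PRL libraries, close to a doubling (edgeR log2 fold change 0.97 with SE 0.12, adjusted p = 7.2e-05). FZD1 measured 5.63, 7.85 and 8.05 CPM across the controls against 10.9, 10.4 and 12.2 CPM across the PRL libraries (edgeR log2 fold change 0.63 with SE 0.15, adjusted p = 0.00372). FZD5 measured 3.39, 3.95 and 3.31 CPM across the controls against 5.43, 6.11 and 6.28 CPM across the PRL libraries (edgeR log2 fold change 0.74 with SE 0.15, adjusted p = 0.00174). In these 3 genes each PRL library exceeded each control. FZD9 measured 3.08 ± 0.194 CPM in controls and 3.57 ± 0.178 CPM with PRL and did not pass (edgeR log2 fold change 0.21 with SE 0.17, adjusted p = 0.284).

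The shares of single receptors in the Frizzled family followed these differences. By TPM, FZD2 made up 46.1% ± 0.462 to 35.5% ± 1.52 of the summed Frizzled level from control to PRL, FZD3 21.3% ± 0.236 to 18.3% ± 1.32, and FZD7 5.14% ± 0.460 to 11.5% ± 0.873. The separation between the groups exceeded the spread in each of the 3 shares, which were not tested. FZD6 with 1, 0 and 0 counts across the controls against 1, 6 and 3 across the PRL libraries and FZD8 with 1, 4 and 0 counts across the controls against 3, 5 and 3 across the PRL libraries were too low to test, and FZD10 had at most 3 counts in every library. Of the 9 tested receptors, 33.3% were higher and 33.3% lower, near the 32.4% and 30.5% of all tested genes; with library totals 5 were higher and 1 lower.

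**Figure D3:**
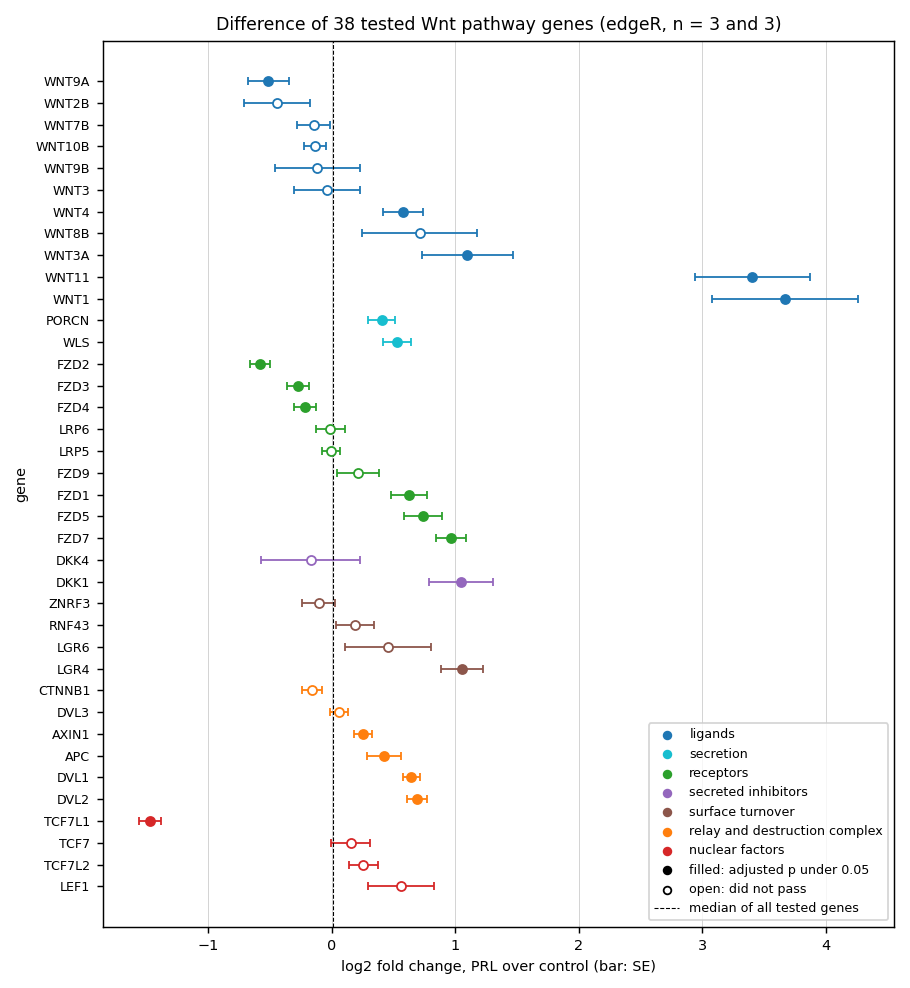
Log2 fold change of PRL over control for the 38 tested genes (horizontal axis; bar: SE), 1 row per gene ordered by role, coloured by role; filled points passed the test and open points did not. The 15 higher genes fall in every role but the nuclear factors and the 5 lower ones among ligands, receptors and nuclear factors, with WNT1 at 3.67 and TCF7L1 at -1.47 at the ends.

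Of the 5 DKK and SFRP genes, which encode secreted inhibitors, 2 had enough counts to test, and of these DKK1 was called higher. Over all tested genes 32.4% were higher. DKK1 binds LRP5 and LRP6 and blocks the canonical branch. It had 12, 20 and 25 counts across the controls against 48, 43 and 45 across the PRL libraries, or 0.813, 1.28 and 1.56 CPM across the controls against 2.66, 2.37 and 2.57 CPM across the PRL libraries. Every PRL library lay above every control, 2.06-fold by the fit (edgeR log2 fold change 1.04 with SE 0.26, adjusted p = 0.00488). DKK4, a related inhibitor, had 12, 17 and 6 counts across the controls against 13, 12 and 11 across the PRL libraries and did not pass (edgeR log2 fold change -0.17 with SE 0.40, adjusted p = 0.725). DKK2, DKK3 and SFRP5, a decoy that binds Wnt proteins, had at most 3 counts in every library.

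The DKK1 promoter is printed because DKK1 is also known as a target of beta-catenin and TCF in other cells, and because it was the only one of the 39 member promoters with the CTTTGTT motif. The 250 bases before its RefSeq start lie at chr10:52314031-52314280 on the plus strand of GRCh38.p14. The capitals mark the motif, which lies 76 to 70 bases before the start. Over all 27305 promoters in the table, 4.54% held CTTTGTT within the same length. CTTTGAT was in 0 member promoters and in 2.28% of all promoters. TTCNNNGAA was in 1 member promoter, that of APC as TTCAGAGAA, and in 6.78% of all, and the interferon-stimulated response element in 0 members and 3.07% of all. The 2 matches in members do not overlap any other motif searched. A match describes letters and not binding.
DKK1 promoter: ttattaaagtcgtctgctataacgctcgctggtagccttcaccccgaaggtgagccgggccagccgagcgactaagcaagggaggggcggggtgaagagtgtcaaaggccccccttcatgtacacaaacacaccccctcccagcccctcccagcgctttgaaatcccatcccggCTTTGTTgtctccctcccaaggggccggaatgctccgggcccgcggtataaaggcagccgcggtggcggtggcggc

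LGR4 stood out among the genes that control receptor turnover at the surface. It encodes a receptor for R-spondins, which protect Frizzleds from removal by the ubiquitin ligases RNF43 and ZNRF3. LGR4 measured 10.98, 10.97 and 18.1 CPM across the controls against 29.4, 28.4 and 25.6 CPM across the PRL libraries, 2.08-fold higher by the fit (edgeR log2 fold change 1.05 with SE 0.17, adjusted p = 3.7e-04). The groups did not overlap, although control replicate 3 lay between the other controls and the PRL libraries. Without that library the log2 fold change was 1.36. RNF43 measured 6.90 ± 1.17 CPM in controls and 7.88 ± 0.874 CPM with PRL (edgeR log2 fold change 0.19 with SE 0.15, adjusted p = 0.303) and ZNRF3 measured 8.67 ± 1.06 CPM in controls and 8.07 ± 0.750 CPM with PRL (edgeR log2 fold change -0.10 with SE 0.13, adjusted p = 0.517), neither of which passed. By the annotation 59.5% of the RNF43 exon bases also lie in a gene on the same strand and 20.3% in a gene on the other strand, so its reads may be shared. Exon overlap with a gene on the other strand was also annotated for WNT2B (21.2%), FZD4 (18.9%), DKK1 (9.61%), WNT11 (8.50%) and LEF1 (5.20%). LGR6 had 7, 6 and 9 counts across the controls against 12, 11 and 12 across the PRL libraries and did not pass (edgeR log2 fold change 0.45 with SE 0.35, adjusted p = 0.293), and LGR5 had at most 3 counts in every library. The R-spondins themselves were scarce: RSPO1 rose from 0.129 ± 0.0620 to 0.706 ± 0.130 CPM (edgeR log2 fold change 2.39 with SE 0.49, adjusted p = 0.00164), RSPO4 had 3, 0 and 0 counts across the controls against 5, 7 and 4 across the PRL libraries and was too low to test, and RSPO2 and RSPO3 had between 0 and 3 counts.

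In the cytoplasmic relay, DVL1 and DVL2 rose while DVL3, the most abundant of the 54 genes, did not pass. The DVL genes encode the Dishevelled proteins, which couple Frizzleds to the inside of the cell. DVL3 had 89.3 ± 13.1 TPM in controls and 125 ± 5.38 TPM with PRL. It measured 313, 326 and 336 CPM across the controls against 347, 330.4 and 337 CPM across the PRL libraries, with overlapping groups (edgeR log2 fold change 0.058 with SE 0.074, adjusted p = 0.513). On log2(TPM + 1) it passed, at 0.49 (limma adjusted p = 0.00162), where the median of all genes was 0.39. DVL1 measured 59.04, 58.9 and 63.3 CPM across the controls against 92.3, 94.5 and 96.95 CPM across the PRL libraries (edgeR log2 fold change 0.65 with SE 0.071, adjusted p = 3.0e-05). DVL2 measured 33.1, 34.6 and 37.8 CPM across the controls against 53.9, 58.04 and 58.5 CPM across the PRL libraries (edgeR log2 fold change 0.69 with SE 0.081, adjusted p = 4.5e-05). In DVL1 and DVL2 all PRL libraries lay above all controls. By TPM the share of DVL3 in the 3 Dishevelled genes was 67.9% ± 0.478 to 57.97% ± 1.28 from control to PRL, that of DVL1 20.05% ± 0.436 to 25.8% ± 0.557, and that of DVL2 12.1% ± 0.352 to 16.2% ± 0.729.

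The scaffolds of the destruction complex were slightly higher and beta-catenin itself did not pass. AXIN1 measured 68.3, 62.4 and 66.2 CPM across the controls against 78.7, 75.99 and 79.7 CPM across the PRL libraries (edgeR log2 fold change 0.25 with SE 0.072, adjusted p = 0.0106). APC measured 10.8, 11.7 and 15.7 CPM across the controls against 16.5, 18.01 and 16.9 CPM across the PRL libraries (edgeR log2 fold change 0.42 with SE 0.14, adjusted p = 0.0194), and control replicate 3 was nearest to the PRL libraries. In both genes the groups did not overlap. The AXIN1 call was lost without PRL replicate 1 (edgeR adjusted p = 0.0523) or PRL replicate 3 (edgeR adjusted p = 0.0568). The APC call was lost without control replicate 1 (edgeR adjusted p = 0.0647), control replicate 2 (edgeR adjusted p = 0.0803) or PRL replicate 2 (edgeR adjusted p = 0.0725). CTNNB1, which encodes beta-catenin, measured 157, 141 and 165 CPM across the controls against 138, 139 and 138 CPM across the PRL libraries (edgeR log2 fold change -0.16 with SE 0.079, adjusted p = 0.101). Its PRL libraries lay below all controls in CPM. On log2(TPM + 1) the CTNNB1 difference was 0.29 (limma adjusted p = 0.0203), where the median of all genes was 0.39. AXIN2, a scaffold and a widely used readout of beta-catenin activity, had 0, 2 and 4 counts across the controls against 2, 3 and 2 across the PRL libraries, a ratio of 1.01 (exact binomial 95% interval 0.290 to 3.63). By the annotation 25.2% of the AXIN2 exon bases also lie in another gene on the same strand. At this depth a difference in AXIN2 within that interval was not detectable.

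TCF7L1 had the largest decrease of the 38 tested genes. It encodes a TCF factor known mostly as a repressor of Wnt target genes in the absence of beta-catenin. TCF7L1 measured 62.8, 62.95 and 55.4 CPM across the controls against 19.99, 22.2 and 23.2 CPM across the PRL libraries. Every PRL library was far below every control, 2.77-fold lower by the fit (edgeR log2 fold change -1.47 with SE 0.090, adjusted p = 6.0e-07). TCF7L2 measured 8.69 ± 0.633 CPM in controls and 10.4 ± 0.804 CPM with PRL (edgeR log2 fold change 0.26 with SE 0.12, adjusted p = 0.0755), TCF7 measured 3.998 ± 0.383 CPM in controls and 4.45 ± 0.448 CPM with PRL (edgeR log2 fold change 0.15 with SE 0.16, adjusted p = 0.427), and LEF1, with 15, 33 and 33 counts across the controls against 50, 45 and 43 across the PRL libraries, also did not pass (edgeR log2 fold change 0.56 with SE 0.27, adjusted p = 0.0914). For TCF7L2 and LEF1 the PRL libraries nevertheless lay above all controls. Both passed on log2(TPM + 1), at 0.56 and 0.57 (limma adjusted p = 0.00372 and 0.0109), where the median of all genes was 0.39.

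TCF7L1 was the leading TCF/LEF gene in both groups, but its share of their summed TPM was 83.97% ± 2.29 to 60.98% ± 2.72 from control to PRL. The share of TCF7L2 was 8.49% ± 0.617 to 20.6% ± 1.95 and that of LEF1 2.74% ± 1.01 to 8.11% ± 1.47. The summed level of the 4 factors was 74.8 ± 3.94 CPM in controls and 39.2 ± 1.45 CPM with PRL. TCF7L1 lies on chromosome 2, 85133410 to 85310388, plus strand, and the 250 bases before its RefSeq start, at chr2:85133142-85133391 on the plus strand of GRCh38.p14, are shown because this gene fell the most. None of the 4 motifs was found in that window, and 72.0% of its letters were G or C.
TCF7L1 promoter: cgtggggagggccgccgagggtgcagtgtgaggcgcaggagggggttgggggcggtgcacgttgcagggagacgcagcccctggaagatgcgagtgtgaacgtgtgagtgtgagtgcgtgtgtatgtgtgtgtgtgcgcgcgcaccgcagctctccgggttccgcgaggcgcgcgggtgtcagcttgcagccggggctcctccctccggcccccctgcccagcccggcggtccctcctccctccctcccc

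Further genes of the pathway were counted on lists drawn up by function, with earlier results of these data known. Their shares are to be read beside the 32.4% of all tested genes that were higher and the 30.5% that were lower. Some called list genes passed the count minimum only through the PRL group and could hardly have been called lower. These were RSPO1, NOTUM, DKKL1 and GPC3 among the modulators, DACT3 and NKD1 among the cytoplasmic genes, and VANGL2 in the polarity branch. Among the targets they were NKD1, NOTUM and JAG1. SOSTDC1 passed it only through the controls and could hardly have been called higher. Of 14 tested extracellular modulators and co-receptors, 9 were higher (64.3%), 2 lower (14.3%) and 3 did not pass, with a median log2 fold change of 0.40. Over the alternatives 5 to 12 were higher and 0 to 3 lower. GPC4 and GPC3, cell-surface glypicans, rose from 2.68 ± 0.385 to 8.49 ± 1.09 CPM (edgeR log2 fold change 1.66 with SE 0.17, adjusted p = 1.9e-05) and from 0.710 ± 0.184 to 2.63 ± 0.560 CPM (edgeR log2 fold change 1.88 with SE 0.30, adjusted p = 3.0e-04). SOSTDC1, a secreted antagonist, fell from 1.71 ± 0.321 to 0.281 ± 0.173 CPM (edgeR log2 fold change -2.59 with SE 0.41, adjusted p = 2.9e-04). KREMEN1, a receptor for DKK1, fell from 33.1 ± 0.838 to 24.2 ± 1.72 CPM (edgeR log2 fold change -0.45 with SE 0.085, adjusted p = 9.0e-04).

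Among 22 tested cytoplasmic kinases, ligases and scaffolds, 15 were higher (68.2%), 2 lower (9.09%) and 5 did not pass, with a median of 0.41. Over the alternatives 13 to 18 were higher and 0 to 2 lower. DACT3, a binder and inhibitor of Dishevelled, rose from 0.476 ± 0.0892 to 4.54 ± 0.300 CPM (edgeR log2 fold change 3.24 with SE 0.24, adjusted p = 2.3e-06). The tankyrases TNKS and TNKS2, which mark AXIN proteins for degradation, rose from 18.7 ± 1.05 to 33.6 ± 1.005 CPM (edgeR log2 fold change 0.84 with SE 0.085, adjusted p = 1.6e-05) and from 44.8 ± 5.28 to 84.8 ± 6.35 CPM (edgeR log2 fold change 0.92 with SE 0.098, adjusted p = 2.5e-05). NKD2, another Dishevelled binder, rose from 1.91 ± 0.615 to 6.66 ± 0.537 CPM (edgeR log2 fold change 1.80 with SE 0.21, adjusted p = 4.5e-05).

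Of 18 tested nuclear cofactors, 7 were higher (38.9%), 5 lower (27.8%) and 6 did not pass, with a median of 0.13, shares near those of all tested genes. With library totals 10 were higher and 2 lower, and on log2(TPM + 1) 12 and 0. TLE1, a co-repressor of TCF factors, rose from 25.1 ± 3.61 to 52.02 ± 1.61 CPM (edgeR log2 fold change 1.05 with SE 0.10, adjusted p = 1.4e-05), whereas the related TLE3 fell from 69.2 ± 9.26 to 47.8 ± 0.865 CPM (edgeR log2 fold change -0.53 with SE 0.098, adjusted p = 8.1e-04). EP300, a histone acetyltransferase, rose from 28.8 ± 4.91 to 45.4 ± 0.442 CPM (edgeR log2 fold change 0.65 with SE 0.11, adjusted p = 5.6e-04), and BCL9L, a beta-catenin cofactor, from 118 ± 22.7 to 187 ± 4.82 CPM (edgeR log2 fold change 0.67 with SE 0.12, adjusted p = 6.3e-04). Of 13 tested genes of the planar cell polarity branch, 7 were higher (53.8%), 3 lower (23.1%) and 3 did not pass, with a median of 0.29, and over the alternatives 6 to 10 were higher and 1 to 3 lower. SCRIB, a polarity scaffold, fell from 222 ± 3.40 to 134 ± 1.13 CPM (edgeR log2 fold change -0.73 with SE 0.068, adjusted p = 1.1e-05). CELSR1 rose from 76.5 ± 11.98 to 132 ± 3.87 CPM (edgeR log2 fold change 0.78 with SE 0.11, adjusted p = 1.2e-04), VANGL2 from 0.278 ± 0.0877 to 1.41 ± 0.0839 CPM (edgeR log2 fold change 2.31 with SE 0.34, adjusted p = 2.1e-04) and PRICKLE2 from 3.24 ± 0.676 to 6.32 ± 0.593 CPM (edgeR log2 fold change 0.96 with SE 0.18, adjusted p = 8.6e-04), all core polarity genes.

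Of 17 tested genes known as beta-catenin and TCF targets in other cells, 8 were higher (47.1%), 3 lower (17.6%) and 6 did not pass, with a median of 0.17. Over the alternatives 6 to 11 were higher and 2 to 5 lower, the 5 without control replicate 3. These shares leave out AXIN2, LGR5, RNF43, ZNRF3, TCF7, LEF1 and DKK1, which are known as targets too but were counted as members only. Of these, DKK1 was higher and RNF43, ZNRF3, TCF7 and LEF1 did not pass. AXIN2 and LGR5 had too few counts to test. VEGFA, an angiogenic growth factor, rose from 44.04 ± 12.1 to 238 ± 8.39 CPM (edgeR log2 fold change 2.43 with SE 0.16, adjusted p = 9.4e-07), and EPHB2, an ephrin receptor, from 1.92 ± 0.320 to 6.55 ± 0.967 CPM (edgeR log2 fold change 1.77 with SE 0.19, adjusted p = 2.9e-05). CCND1, which encodes cyclin D1, fell from 219 ± 36.8 to 83.2 ± 5.10 CPM (edgeR log2 fold change -1.40 with SE 0.12, adjusted p = 5.5e-06), and BIRC5, which encodes survivin, from 274 ± 32.5 to 114 ± 3.09 CPM (edgeR log2 fold change -1.26 with SE 0.093, adjusted p = 2.0e-06). NKD1, a feedback inhibitor, rose from 0.644 ± 0.160 to 1.92 ± 0.619 CPM (edgeR log2 fold change 1.56 with SE 0.35, adjusted p = 0.00269). NOTUM, another, rose from 0.239 ± 0.106 to 0.872 ± 0.294 CPM (edgeR log2 fold change 1.85 with SE 0.46, adjusted p = 0.00521). Both were at low levels and passed the count minimum only through the PRL group. APCDD1, on the same list, went from 1.49 ± 0.461 to 0.965 ± 0.217 CPM and did not pass (edgeR log2 fold change -0.62 with SE 0.32, adjusted p = 0.114). SP5, another common readout, had 2, 1 and 3 counts across the controls against 7, 3 and 2 across the PRL libraries and was too low to test.

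Of 6 tested cadherin complex partners of beta-catenin, 4 were higher (66.7%) and 2 did not pass, with a median of 0.31. The count was 2 without PRL replicate 1, PRL replicate 2 or PRL replicate 3, and up to 6 in the other alternatives. CDH1, which encodes E-cadherin and holds beta-catenin at cell junctions, rose from 155 ± 15.5 to 248 ± 2.53 CPM (edgeR log2 fold change 0.68 with SE 0.086, adjusted p = 7.4e-05). CDH3 rose from 46.6 ± 0.499 to 66.5 ± 1.03 CPM (edgeR log2 fold change 0.51 with SE 0.068, adjusted p = 1.0e-04), VCL from 66.6 ± 9.85 to 82.8 ± 0.433 CPM (edgeR log2 fold change 0.31 with SE 0.10, adjusted p = 0.0201) and CTNND1 from 207 ± 32.1 to 256 ± 1.90 CPM (edgeR log2 fold change 0.31 with SE 0.11, adjusted p = 0.0271).

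The hormone axis in which WNT4 is placed in the mammary gland was counted beside it. Of 6 tested genes, 4 were higher (66.7%), 1 lower (16.7%) and 1 did not pass, with a median of 1.14; over the alternatives 4 to 5 were higher and 0 to 1 lower. PGR, the progesterone receptor gene, rose from 391 ± 80.6 to 705 ± 9.50 CPM (edgeR log2 fold change 0.85 with SE 0.13, adjusted p = 2.3e-04). AREG, an EGF receptor ligand, rose from 34.2 ± 4.79 to 294 ± 2.96 CPM (edgeR log2 fold change 3.10 with SE 0.10, adjusted p = 5.6e-09), ELF5, a transcription factor of the milk-producing lineage, from 44.2 ± 5.20 to 119 ± 3.48 CPM (edgeR log2 fold change 1.43 with SE 0.092, adjusted p = 8.3e-07), and TNFRSF11A, the receptor RANK, from 1.01 ± 0.239 to 4.69 ± 0.242 CPM (edgeR log2 fold change 2.20 with SE 0.22, adjusted p = 1.5e-05). ESR1, the oestrogen receptor gene, fell from 108 ± 8.32 to 85.1 ± 2.76 CPM (edgeR log2 fold change -0.35 with SE 0.079, adjusted p = 0.00296). PRLR, the prolactin receptor gene, measured 659.7 ± 121 CPM in controls and 798 ± 20.8 CPM with PRL and did not pass (edgeR log2 fold change 0.27 with SE 0.12, adjusted p = 0.0724). TNFSF11, the RANK ligand, had 0 or 1 counts in each library.

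The calls rest on TMM scaling. Over all genes the median difference was 0.26 (log2) with library totals and 0.39 on log2(TPM + 1), where TMM gave 0.01. Measured against the median of all genes in the same setting, all 20 called members stayed on the side given above in every one of the settings that gave them a value, including FZD2, FZD3 and FZD4. The value of FZD4 nearest to the median was -0.022. Subtracting the median removes a shift common to all genes, so agreement between scalings follows largely from that step. It cannot show which scaling is right.

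**Figure D4:**
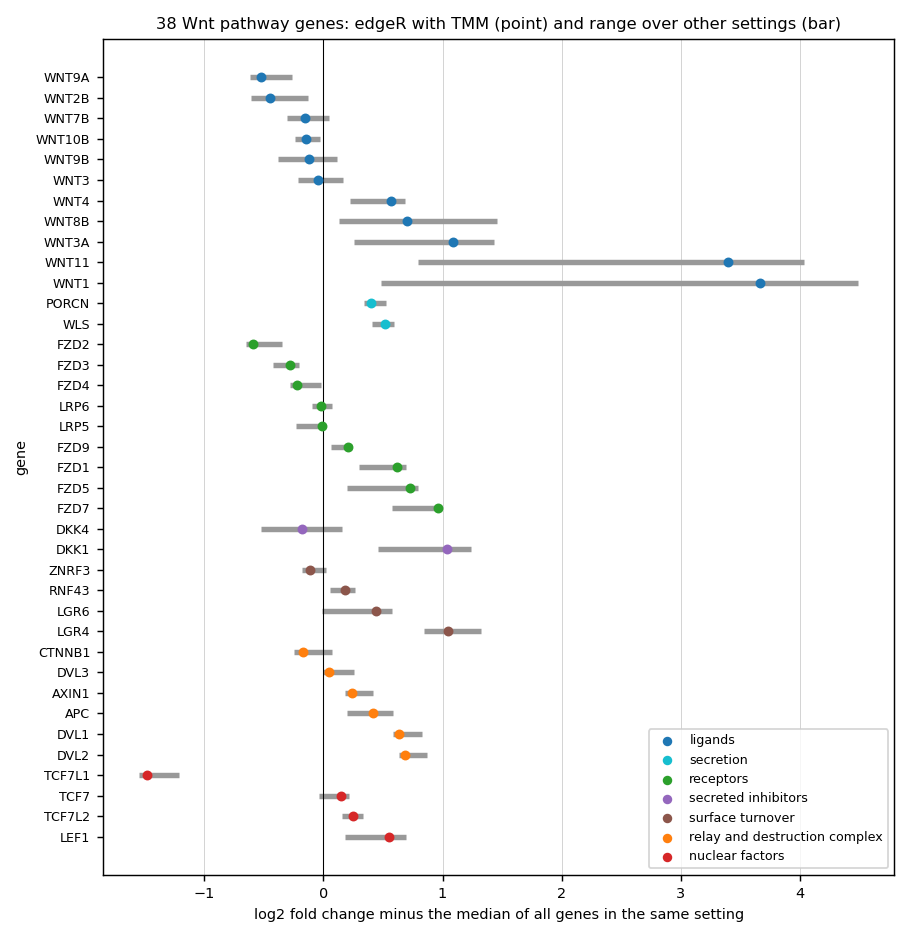
Log2 fold change of the 38 tested genes after subtracting the median of all genes in the same setting (horizontal axis), 1 row per gene; the point is the value under edgeR with TMM and the bar the range over up to 19 other settings. The bars of the 20 called genes do not cross 0.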

How the data were processed

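RNA came from 6 T47D libraries, 3 with a PRL lentivirus and 3 with the control lentivirus, by Trizol extraction and a standard Illumina preparation, per the labels' protocols. HISAT2 2.1.0, Bowtie2 2.3.4.3 and the build GRCh38.p13 are listed in the submitters' processing notes. How reads were counted, with which annotation and whether by strand is not given in the sources used here; genes that overlap on opposite strands may therefore share reads.

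Each gene has an expected count, an FPKM and a TPM per library in the table the authors deposited, per the file headers. Its FPKM and TPM values were scaled to length and library by the authors before deposit, per the file headers. Every single-library column (18) was matched to a sample by title, and 6 columns of group means were left out.

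Estimated counts were rounded to whole numbers (16211146 to 17402348 per library) and tested in R 4.3.3 with edgeR 4.0.16: filterByExpr with a minimum count of 10, TMM scaling, and the robust quasi-likelihood test with group as the only term. This left 14076 genes. P-values are Benjamini-Hochberg adjusted over all of them, two-sided, with a threshold of 0.05. SE is the absolute log2 fold change over the root of F. The fit was tested on simulated data. Genes with at most 3 counts in every library were treated as below detection, and ratios of scarce genes carry exact binomial (Clopper-Pearson) 95% intervals. Values after ± are SD over 3 libraries.

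Members given with the value of every library are those past the threshold with a log2 fold change of at least 1 in either direction, the member with the highest mean TPM in each role, and members whose call ends or turns under an alternative. For each further list the 4 genes with the smallest adjusted p are named. Values of other members past the threshold, and of further list genes (NKD1, NOTUM, APCDD1, RSPO1 to RSPO4, SP5, ESR1, PRLR and TNFSF11) were added after their values were seen. The members and lists were chosen with earlier results of these data known. The alternatives were other scalings and filters, DESeq2 1.42.0, limma 3.58.1 on counts, FPKM and TPM, a replicate block, and leaving out each library. Whether replicate numbers pair the libraries could not be decided, and the main fit did not pair them.

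All 54 members were matched to GENCODE 29 on GRCh38 by NCBI gene ID for positions. Promoter sequences are from RefSeq on GRCh38.p14, which held 39 of the members.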

Additional observations from a re-analysis of the deposited data

How the results depend on the processing

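Of the 20 members past the threshold, 13 kept their direction and their call in every one of the 19 alternatives that gave them a value. The calls of WNT3A, WNT9A, APC, AXIN1, FZD2, FZD3 and FZD4 did not. Of the 18 members not past it, 6 (WNT10B, WNT2B, WNT3, WNT9B, DKK4 and ZNRF3) stayed short of it in every alternative, but all 6 changed sign in at least 1. The cause of these differences was not tested. Depth limits the scarcest members: WNT1, WNT8B, WNT9B, DKK4 and LGR6 had no value under the stricter filter or the filtered FPKM and TPM fits.

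Genes lower with PRL numbered 4300 with TMM, 2394 with library totals, 2356 on FPKM, and 1375, 1363 and 1438 on TPM with a pseudocount of 1, of 0.1 and without a filter. Genes higher numbered 4554 with TMM and 7118, 7048 and 8076 in the same TPM fits. The median difference of all genes in those TPM fits was 0.39, 0.44 and 0.23 (log2), against 0.01 with TMM. Among the called genes 51.4% were higher with TMM, 72.9% with library totals, 69.9% on FPKM and 83.8% on TPM with a pseudocount of 1; among called members the shares were 75%, 90.9%, 87.5% and 95.2%. Members lower with PRL numbered 5 with TMM, 2 with library totals, 2 on FPKM and 1 in each TPM fit, and members higher numbered 15 with TMM and 26 on TPM without a filter. Leaving out 1 library gave 2 to 5 lower members (3 without control replicate 1, PRL replicate 1 or PRL replicate 2, and 2 without PRL replicate 3) and 13 to 15 higher ones.

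The sign turned in at least 1 alternative for 2 of the members past the threshold (FZD3 and FZD4) and for 10 of the others, among them WNT10B (-0.17 to 0.21), WNT7B (-0.27 to 0.30) and ZNRF3 (-0.17 to 0.36). It turned together with a call on either side for CTNNB1 on TPM (0.29, 0.30 and 0.29 in the fits with a pseudocount of 1, of 0.1 and without a filter), for FZD3 (0.022, 0.025 and 0.022) and for FZD4 (0.20, 0.24 and 0.20), for FZD4 also with library totals (0.042) and on FPKM (0.033), for LRP5 with library totals (0.25, where the median of all genes was 0.26), and for LRP6 on TPM with a pseudocount of 1 (0.30) and without a filter (0.30).

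Deviations from the group mean had correlations of -0.105, 0.0428 and -0.0569 between same-numbered libraries of the 2 groups. Between differently numbered libraries the correlations were -0.0640 to 0.129. With 3 libraries per group these values cannot decide whether the numbers pair the libraries. With the replicate block 15 members were higher and 4 lower, since FZD4 no longer passed (edgeR adjusted p = 0.104).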
